A study of Rattus norvegicus with 2 samples.

Results

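Mybpc1-positive Pvalb-like interneurons of the rat orbitofrontal cortex are described here from single-nucleus RNA sequencing, in which each nucleus is read as counts of unique molecular identifiers (UMIs). The group comprised 135 nuclei, 84 from the METH library and 51 from the saline library, out of 12407 nuclei with at least 500 genes detected. METH stands for methamphetamine. One library came from rats given METH at 1 mg/kg intraperitoneally for 7 days, and the other from rats given saline for 7 days. All rats were male Sprague-Dawley animals of 8 weeks, and tissue of 4 rats per group was taken. With 1 library per group no comparison had replicates, no test between groups was possible, and every interval given is a 95% interval for counting error alone. How the tissue of the 4 rats entered the library is not given in the labels.

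A nucleus was a member if it held at least 2 UMIs of Gad1 and Gad2 together, none of Slc17a7, at least 1 of Mybpc1, at least 1 of any of Btbd11, Adamts15, Kcns3, Plch1, Pvalb and Esr2, none of Sst, and at most 1 of Adarb2. The same conditions with no Mybpc1 UMI gave 324 Mybpc1-negative nuclei in the METH library and 281 in the saline library. The members were thus chosen by the measured UMI counts of these genes, whose values are given as a description. Esr2, Drd2 and Grin2c were also singled out in the definition of the group with their values already known.

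Parvalbumin interneurons are fast-spiking GABAergic cells that inhibit the soma and proximal dendrites of pyramidal neurons, or, as chandelier cells, their axon initial segment. Mybpc1 encodes slow myosin-binding protein C, a sarcomere protein of skeletal muscle. Esr2 encodes oestrogen receptor beta, a nuclear receptor that acts on DNA at oestrogen response elements. Drd2 encodes the D2 dopamine receptor, a Gi-coupled receptor, and Grin2c encodes the GluN2C subunit of NMDA receptors.

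The promoters of the gene that defines the group and of the oestrogen receptor gene are shown, from 250 bases before to 50 bases after each annotated start. The sequences are RefSeq's on build GRCr8, which may differ from the build behind the counts, and both are read along the minus strand, chr7:24903324-24903623 for Mybpc1 and chr6:100644660-100644959 for Esr2. Capitals mark matches on either strand to the TATA box TATAAA, to the E-box CAGCTG, to the E-box CACGTG and to GGTCA, the half-site of the oestrogen response element.
Mybpc1: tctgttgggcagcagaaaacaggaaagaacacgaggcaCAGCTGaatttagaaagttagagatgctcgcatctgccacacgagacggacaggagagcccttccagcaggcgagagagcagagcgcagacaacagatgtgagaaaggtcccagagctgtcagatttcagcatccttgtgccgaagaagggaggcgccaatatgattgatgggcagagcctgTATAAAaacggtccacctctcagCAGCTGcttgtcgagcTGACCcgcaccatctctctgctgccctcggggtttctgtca
Esr2: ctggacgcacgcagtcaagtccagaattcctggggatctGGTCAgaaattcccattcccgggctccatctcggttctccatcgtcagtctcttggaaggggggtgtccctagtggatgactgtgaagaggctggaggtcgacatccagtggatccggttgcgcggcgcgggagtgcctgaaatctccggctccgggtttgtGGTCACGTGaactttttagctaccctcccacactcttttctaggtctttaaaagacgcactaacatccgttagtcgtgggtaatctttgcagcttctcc
The Mybpc1 window held TATAAA from base -30 to -25 before the start, 2 copies of CAGCTG, the E-box form bound by muscle basic helix-loop-helix factors, and 1 half-site. The Esr2 window held 2 half-sites, 1 of which overlapped a CACGTG match. Of 33469 rat promoter windows of the same length, 14.2% held TATAAA, 15.1% CAGCTG, 6.42% CACGTG and 40.5% the half-site, so a half-site is common. The full element, which is the half-site, any 3 bases and the reverse complement of the half-site, was in 0.0269% of windows and in none of those of Mybpc1, Esr2, Drd2 and Grin2c. These are matches of letters, and 3′ end counts do not show which start site was used.

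The METH library held 44969322 UMIs in 5543 barcodes and the saline library 42221257 in 6969. Of these, 5490 and 6917 had at least 500 genes. The 2 libraries shared 9 barcodes, none of which was a member. Member nuclei had a median of 7178.5 UMIs in the METH library and 5172 in the saline library, and Mybpc1-negative nuclei 6631 and 4952. Scrublet called 4 members of the METH library and 2 of the saline library doublets, and they were kept.

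Many members held few Mybpc1 UMIs. Among METH members 22 had a single Mybpc1 UMI, the median was 4 and the highest count 25. Among saline members 14 had a single UMI, the median was 4 and the highest 19. Just outside, 9 METH and 4 saline nuclei failed only by 1 Sst UMI, 11 and 16 only by 1 Slc17a7 UMI, 5 and 8 only by a sum of Gad1 and Gad2 of 1, and 1 METH nucleus and 0 saline nuclei only by 2 Adarb2 UMIs. No METH nucleus and 1 saline nucleus with Mybpc1 failed only by lacking all 6 marker genes. Mybpc1 was not confined to the group: 224 METH and 142 saline nuclei had a UMI, and the members held 44.6% of all Mybpc1 UMIs in the METH library and 43.5% in the saline library, against 1.43% and 0.694% of all UMIs. A Mybpc1 UMI was found in 7.03% and 5.22% of METH and saline GABAergic nuclei with at least 2 Adarb2 UMIs and no Sst (medians of 5468.5 and 4314 UMIs), where 1 METH nucleus held 25. It was found in 4.10% and 2.68% of Sst-positive GABAergic nuclei (medians of 6553.5 and 4772.5 UMIs). Among excitatory nuclei, which are deeper (medians of 10489 and 7447.5 UMIs), 0.820% had a Mybpc1 UMI in the METH library and 0.296% in the saline library.

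Btbd11, Pvalb and Kcns3 belong to the gate, so their levels are a description and no check of the label. Btbd11, a gene enriched in Pvalb interneurons, was at 829 CPM (the UMIs of a gene scaled to a common total of UMIs) in positive and 483 CPM in negative METH nuclei, and at 861 and 518 CPM in saline nuclei. Pvalb itself was sparse in nuclear RNA, at 67.0 CPM in positive and 42.0 CPM in negative METH nuclei, and at 88.8 and 56.4 CPM in saline nuclei. It was seen in 33.3% of positive METH nuclei and 41.2% of positive saline nuclei, against 0.883% and 0.931% of excitatory nuclei. Kcns3, a potassium channel subunit of Pvalb cells, was at 249 CPM in both positive and negative METH nuclei, and at 256 and 242 CPM in saline nuclei.

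Of 20 measured genes of a Pvalb-class list that the gate did not use, 12 were higher in positive than in negative nuclei of both libraries and 5 lower in both, none past the calling rule given below. Over all 7268 genes measured, 28.9% were higher and 29.4% lower in both libraries. Erbb4, the neuregulin receptor of Pvalb cells, was at 3965 CPM in positive and 3150 CPM in negative METH nuclei, and at 4383 and 3343 CPM in saline nuclei. Kcnc2, a Kv3 potassium channel gene that allows fast spiking, was at 4494 and 4159 CPM in METH and at 4806 and 4479 CPM in saline nuclei. Syt2, a synaptotagmin of Pvalb terminals, was at 87.3 and 27.4 CPM in METH and at 85.4 and 35.9 CPM in saline nuclei. The transcription factor gene Maf went the other way, with log2 ratios of positive over negative nuclei of -0.87 (-1.80 to -0.05) in METH and -1.87 (-3.78 to -0.46) in saline nuclei. The summed list was at 15993 and 13262 CPM in METH and at 16718 and 14002 CPM in saline nuclei. It was thus not below its level in the Mybpc1-negative nuclei, which include most nuclei of clusters 3, 4 and 6, described below. In those clusters the list summed to 11952, 8560 and 9867 CPM, and Erbb4 was at 5369, 2263 and 943 CPM. Cluster 1, which held many members, had 16784 and 4005 CPM. Clusters 0, 2 and 5 had 15608, 17545 and 15144 CPM of the list and 4125, 4345 and 4132 CPM of Erbb4. Cluster 1 was thus below cluster 2 for the list, and below each of them for Erbb4.

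Esr2, Drd2 and Grin2c were all higher in Mybpc1-positive than in Mybpc1-negative nuclei, in each library. Esr2 had 81 UMIs in positive and 32 in negative METH nuclei, which is 126 and 13.7 CPM, a log2 ratio of 3.20 (2.60 to 3.84). In the saline library it had 30 and 11 UMIs, 102 and 7.05 CPM, a log2 ratio of 3.86 (2.82 to 5.01). It was detected in 34.5% of positive and 8.33% of negative METH nuclei, and in 27.5% of positive and 3.20% of negative saline nuclei. Excitatory nuclei had it in 1.07% and 0.931%, and oligodendrocytes, with medians of 2101 and 1645 UMIs, in 3.86% and 1.56%. Sst-positive GABAergic nuclei had it in 2.99% and 2.23%, and GABAergic nuclei with at least 2 Adarb2 UMIs and no Sst, called Adarb2-high here, in 2.86% and 2.01%. Esr2 was 1 of the 6 marker genes of the gate, and 3 negative METH nuclei and 0 negative saline nuclei passed by Esr2 alone.

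Drd2 had 24 UMIs in positive and 9 in negative METH nuclei, or 37.4 and 3.86 CPM, a log2 ratio of 3.28 (2.12 to 4.57). In the saline library it had 21 and 3 UMIs, or 71.7 and 1.92 CPM, a log2 ratio of 5.22 (3.48 to 7.61). With these few UMIs it fell under the minimum for a call in the saline library. It was seen in 16.7% of positive METH nuclei and 25.5% of positive saline nuclei, against 2.02% and 2.24% of excitatory nuclei. Grin2c was at 56.1 CPM in positive and 16.3 CPM in negative METH nuclei, a log2 ratio of 1.78 (1.09 to 2.48). In saline nuclei it was at 78.6 and 15.4 CPM, a log2 ratio of 2.35 (1.46 to 3.24). Its share of excitatory nuclei was 4.23% in the METH and 3.98% in the saline library, beside 28.6% and 29.4% of positive nuclei.

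**Figure D1:**
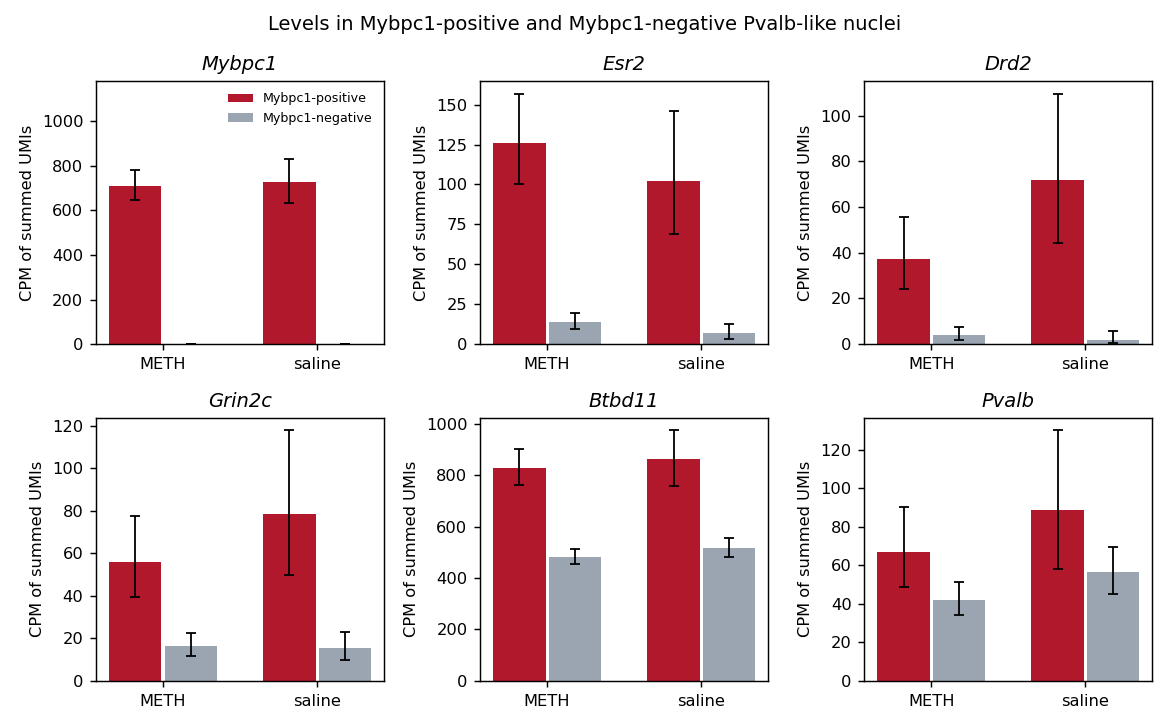
CPM of summed UMIs for 6 genes in Mybpc1-positive (red) and Mybpc1-negative (grey) Pvalb-like nuclei of each library, with exact Poisson 95% intervals. Esr2, Drd2 and Grin2c were higher in the positive nuclei of both libraries, while Btbd11 and Pvalb were nearer to each other; Mybpc1 defined the groups.

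The 3 genes were not all in the same nuclei. At least 1 of them was seen in 54.8% of positive and 17.3% of negative METH nuclei, and in 51.0% of positive and 8.54% of negative saline nuclei. Of the 84 METH members 7 had Esr2 and Drd2 together, 10 Esr2 and Grin2c, and 4 all of them, while 38 had none. Of the 51 saline members 7 had Esr2 and Drd2, 7 Esr2 and Grin2c, and 4 all of them, while 25 had none. Esr2 was at 50.6 CPM in METH members with 1 Mybpc1 UMI, 57.1 CPM with 2 to 4, 189 CPM with 5 to 9 and 228 CPM with 10 or more. In saline members the same steps gave 82.1, 29.5, 183 and 160 CPM. Depth was not held fixed across these steps.

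Grouping of all 740 Pvalb-like nuclei by their other genes, with every gene of the gate left out, set many but not all members apart. Leiden clustering gave 7 clusters. Cluster 1 held 92 nuclei, of which 41 of 47 METH nuclei (87.2%) and 35 of 45 saline nuclei (77.8%) were Mybpc1-positive. It held 48.8% of METH members and 68.6% of saline members, against 1.85% and 3.56% of negative nuclei. At the finer resolution of 1.0 a cluster of the same 92 nuclei came out again. Its leading genes by fold were Drd2, Corin, Rbm20, Ltbp1, Ntf3, Gpr149, Gpc4, Tcerg1l, Grin2c and Chn2. As these genes made the cluster, their height in it is no separate result. Ntf3 and Gpr149 were also on a list of chandelier cell markers, but that list summed to 282 CPM in cluster 1 and to 3743 CPM in cluster 3, led by Unc5b.

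**Figure D2:**
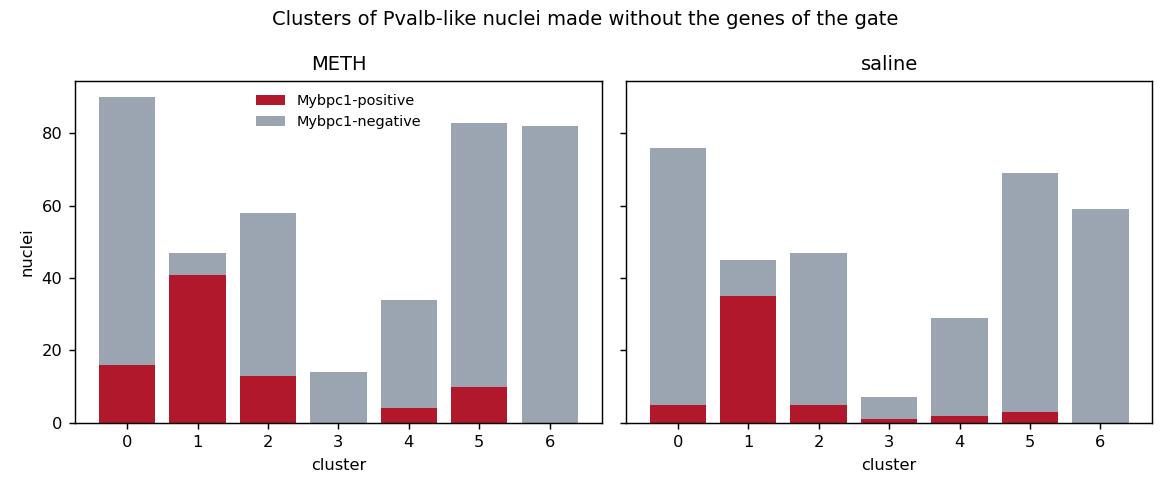
Numbers of Mybpc1-positive (red) and Mybpc1-negative (grey) Pvalb-like nuclei in each of 7 clusters made without the genes of the gate, METH at the left and saline at the right. In cluster 1, 41 of 47 METH nuclei and 35 of 45 saline nuclei were positive, and cluster 6 held no positive nucleus.

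The members inside and outside cluster 1 differed in Mybpc1 and Esr2, genes of the gate that the clustering had not used. Cluster 1 was taken for its high share of Mybpc1-positive nuclei, so these values are a description and no separate check. Inside, METH members had a median of 7 Mybpc1 UMIs and 1114 CPM, and outside a median of 2 and 328 CPM. Saline members had a median of 4 and 907 CPM inside, and a median of 2 and 330 CPM outside. Median depth was similar, with 7063 UMIs inside and 7268 outside in METH nuclei, and 5172 and 5568.5 in saline nuclei. Esr2 was at 243 CPM in 24 of 41 METH members inside and at 15.2 CPM in 5 of 43 outside. In saline members it was at 139 CPM in 12 of 35 inside and at 22.0 CPM in 2 of 16 outside. Mybpc1-negative nuclei of the other clusters had 14.0 and 6.59 CPM, and the outside values rest on 5 and 2 UMIs. Drd2, which did enter the clustering, had 24 UMIs in METH members inside and 0 in those outside, and in saline members 21 and 0. The 16 negative nuclei of cluster 1, 6 METH and 10 saline, had 2 Drd2 UMIs in each library.

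**Figure D3:**
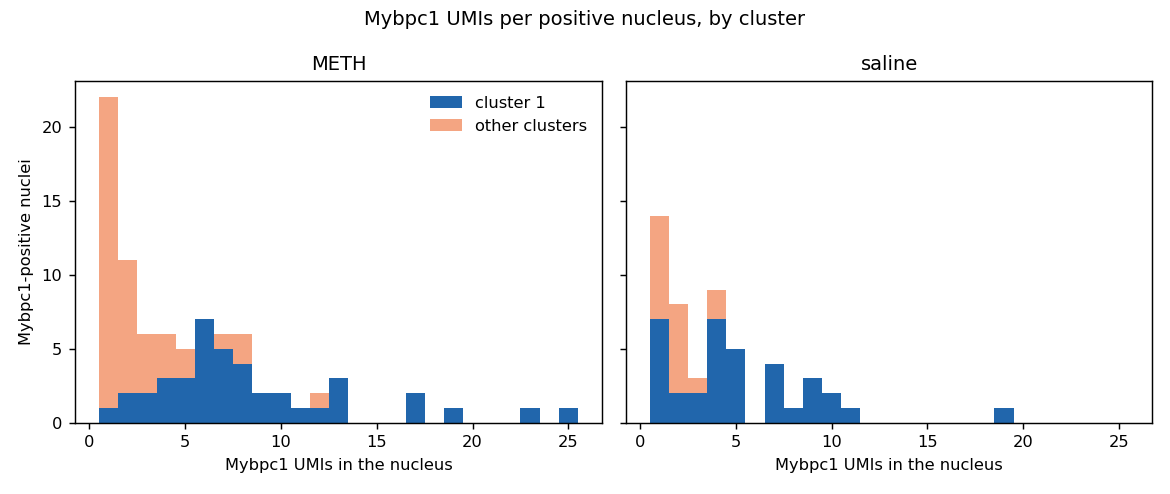
Number of Mybpc1-positive nuclei by their Mybpc1 UMI count, inside cluster 1 (blue) and in the other clusters (orange), METH at the left and saline at the right. Of 43 METH members outside the cluster 21 had a single UMI, against 1 of 41 inside; in the saline library 7 of 16 outside and 7 of 35 inside had a single UMI.

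Across all genes, a gene was called where the ratio of CPM and the end of its interval nearest to no change both passed 1.5-fold in the same direction in each library. Outside the gate, 7268 genes had in each library at least 30 UMIs over both groups and 20 CPM in either, and their median log2 ratio was 0.00023 in the METH and -0.0026 in the saline library. Of them 23 (0.316%) were higher and 60 (0.826%) lower in Mybpc1-positive nuclei.

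The named higher genes held 2 RNA-binding proteins. Rbm20, a splicing regulator best known from titin in heart muscle, was at 111 CPM in positive and 15.9 CPM in negative METH nuclei, a log2 ratio of 2.80 (2.21 to 3.42). In saline nuclei it was at 164 and 17.3 CPM, a log2 ratio of 3.24 (2.54 to 3.98). Rbm20 was also seen in excitatory nuclei, at 70.2 and 70.6 CPM. Khdrbs2, a splicing regulator of neurexins, was at 931 and 315 CPM in METH nuclei and at 1035 and 409 CPM in saline nuclei.

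Genes of calcium binding, receptor sorting and glycan synthesis followed. Caln1, a neuronal calcium-binding protein, had log2 ratios of 1.60 (1.36 to 1.83) in the METH and 1.63 (1.32 to 1.94) in the saline library. Plcxd3 was at 475 CPM in positive and 171 CPM in negative METH nuclei, and at 594 and 162 CPM in saline nuclei. Levels of Plcxd3 in Sst-positive GABAergic nuclei were 102 and 118 CPM, and in excitatory nuclei 94.4 and 82.6 CPM, so it was highest in the members among the groups of nuclei compared. Sorcs1, a sorting receptor, had log2 ratios of 1.41 and 1.37, and Galnt18, an enzyme of O-glycan synthesis, of 1.34 and 1.42. Several named genes were higher in other classes than in the members. Caln1 was at 705 and 853 CPM in Adarb2-high nuclei of the METH and saline libraries, against 435 and 488 CPM in the members. Sorcs1 was at 1407 and 1222 CPM in Adarb2-high nuclei, against 173 and 263 CPM in the members, and Khdrbs2 at 1237 and 1352 CPM in excitatory nuclei.

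Further named genes encode secreted and surface proteins. Fstl1, a secreted glycoprotein, was at 96.6 CPM in positive and 30.0 CPM in negative METH nuclei, and at 147 and 35.2 CPM in saline nuclei. Mme, the peptide-cleaving enzyme neprilysin, was at 104 and 35.6 CPM in METH and at 102 and 33.3 CPM in saline nuclei. Tmem132d was at 917 and 393 CPM in METH and at 1110 and 371 CPM in saline nuclei. Tcerg1l had log2 ratios of 1.97 and 2.23, and the zinc finger gene Zmat4 of 1.11 and 1.38. Adarb2-high nuclei held Tcerg1l at 165 and 114 CPM, against 136 and 147 CPM in the members. They held Zmat4 at 847 and 922 CPM, against 756 and 1015 CPM in the members. Excitatory nuclei held Tmem132d at 844 and 907 CPM and Tcerg1l at 137 and 138 CPM. Oligodendrocytes held Fstl1 at 85.4 and 77.5 CPM.

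Several of the named lower genes were at or near 0 in the positive nuclei. Shisa6, an auxiliary protein of AMPA receptors, had 0 UMIs in positive METH nuclei against 392 in negative ones. With 0 set to 3 counts its log2 ratio was -5.17, and the interval end nearest to no change was -4.86. In the saline library it had 1 and 232 UMIs. Unc13c, a presynaptic priming protein, had 1 and 338 UMIs in METH and 1 and 175 in saline nuclei. Cacna2d3, an auxiliary calcium channel subunit, was at 14.0 and 769 CPM in METH and at 64.9 and 636 CPM in saline nuclei. Ryr3, an intracellular calcium release channel, had 6 and 310 UMIs in METH and 1 and 187 in saline nuclei. Man1a1, a Golgi mannosidase, had 1 and 361 UMIs in METH and 5 and 181 in saline nuclei.

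Reln, the secreted glycoprotein reelin, was at 168 CPM in positive and 624 CPM in negative METH nuclei, a log2 ratio of -1.89 (-2.19 to -1.61). In saline nuclei it was at 75.2 and 621 CPM, a log2 ratio of -3.05 (-3.73 to -2.44). Ptprt, a receptor tyrosine phosphatase, had log2 ratios of -1.87 and -2.37, and Trhde, the enzyme that degrades thyrotropin-releasing hormone, of -1.94 and -2.05. Brinp3 had log2 ratios of -3.94 and -2.27, the nuclear factor gene Tox of -3.96 and -2.43, Thsd7b of -4.71 and -3.44, and the glutamate receptor gene Grm8 of -2.35 and -2.62.

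Of the 12 named lower genes 5 were among the 10 leading genes of 1 cluster of the negative nuclei. Cluster 6 held 25.3% of negative METH nuclei and 21.0% of negative saline nuclei and no member, and these 5 among its leading genes were Unc13c, Shisa6, Cacna2d3, Man1a1 and Ryr3. Its Sst-class list summed to 1377 CPM, against 305 CPM in cluster 1, although the gate allowed no Sst UMI. Cluster 4 held all 29 nuclei that Scrublet called doublets, and cluster 3 had the highest chandelier sum. With clusters 3, 4 and 6 left out of both groups, a comparison chosen after these values were seen, 29 genes were higher and 16 lower of 6647. Ryr3 then read 0.35 (-1.37 to 1.91) in the METH library, Cacna2d3 0.62 (-0.29 to 1.47) in the saline library, and Trhde -0.07 (-0.43 to 0.28) and -0.59 (-1.13 to -0.07). Shisa6 had 0 and 6 UMIs in METH and 0 and 2 in saline nuclei, too few for a ratio.

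Among the clusters that were left, Reln was below 0 on the log2 scale at -1.21 (-1.53 to -0.89) in METH and -2.35 (-3.08 to -1.70) in saline nuclei, and Ptprt at -0.59 (-0.98 to -0.22) and -1.91 (-2.81 to -1.12). The named higher genes were above 0 in this reading as well. Esr2 read 3.07 (2.37 to 3.82) and 3.44 (2.37 to 4.64), Rbm20 2.89 and 3.26, and Drd2 4.81 and 5.25. Sorcs1 read 3.18 in both libraries, above its values against all negative nuclei, and Zmat4 0.84 and 1.22.

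**Figure D4:**
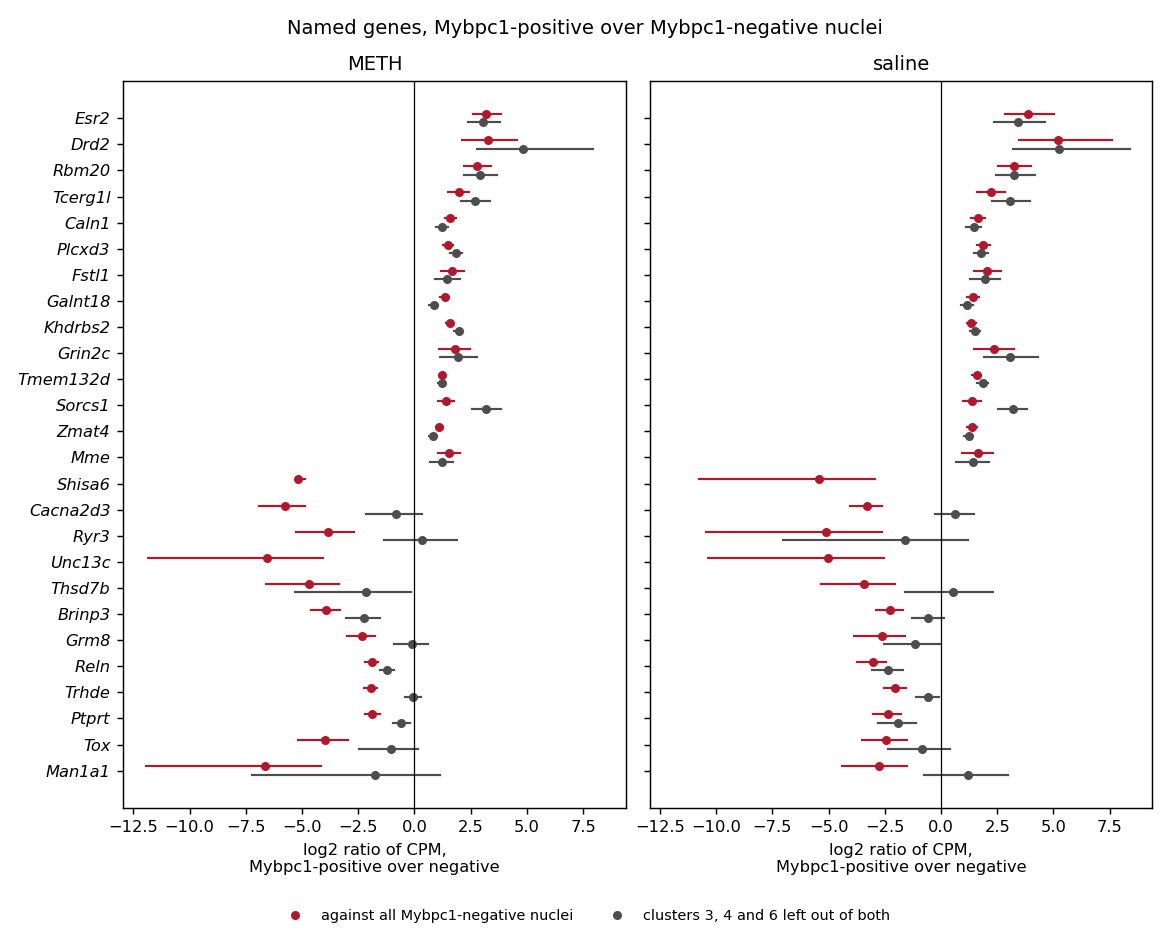
Log2 ratios of CPM of Mybpc1-positive over Mybpc1-negative nuclei, with 95% counting intervals, against all negative nuclei (red) and with clusters 3, 4 and 6 left out (dark grey), METH at the left and saline at the right. The genes from Esr2 to Mme were above 0 in both readings, while Ryr3 in METH and Cacna2d3, Thsd7b and Man1a1 in saline nuclei crossed 0. A point with no interval end rests on a count of 0.

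Lists of receptor genes were read by the same rule. Of 13 measured nuclear receptors besides Esr2, none was called, and medians were 0.25 and -0.09 on the log2 scale in the METH and saline libraries. Rarb, a retinoic acid receptor, was at 51.4 CPM in positive and 39.9 CPM in negative METH nuclei, and at 92.2 and 41.6 CPM in saline nuclei. The orphan receptor gene Rorb had log2 ratios of -0.46 and -1.63. Nr3c2, the mineralocorticoid receptor, was at 268 and 186 CPM in METH and at 369 and 224 CPM in saline nuclei. The other oestrogen receptor gene, Esr1, had only 10 UMIs in positive and 10 in negative METH nuclei, out of totals of 641543 and 2333257. In saline nuclei it had 2 and 15, out of totals of 292735 and 1560792. Scaled to these totals Esr1 was higher in positive METH nuclei and lower in positive saline nuclei, on few UMIs. Cyp19a1, which makes oestradiol from testosterone, had none in any of the 4 groups. Of 7 measured genes of oestrogen synthesis and receptor partners none was called, and the coactivator gene Ncoa3 was at 290 and 199 CPM in METH and at 256 and 202 CPM in saline nuclei.

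The other dopamine receptors were nearly absent. Drd1 had 1 UMI in positive METH nuclei and 0 in negative ones, and 0 and 6 in saline nuclei, while Drd4 and Drd5 had none. Of 7 measured genes of dopamine signalling none was called, with medians of 0.04 and 0.61. Kcnj3, a potassium channel opened by Gi-coupled receptors, was at 1002 and 759 CPM in METH and at 1339 and 803 CPM in saline nuclei. Markers of striatal neurons, which also express Drd2, gave no called higher gene: that list summed to 572 CPM in positive and 787 CPM in negative METH nuclei, and to 765 and 906 CPM in saline nuclei, with 7 and 9 of its 19 genes at 0 in the positive nuclei.

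Of the measured glutamate receptor genes Grin2c alone, singled out in the definition of the group, was called higher in the positive nuclei. Others were called lower, where 0.316% of all measured genes were called higher and 0.826% lower. Of 5 measured NMDA receptor genes Grin2c was called higher and Grin2a and Grin3a lower, Grin2a at 162 and 311 CPM in METH and at 167 and 341 CPM in saline nuclei. Of 7 measured kainate and delta receptor genes 3 were called lower. Among them were the kainate receptor genes Grik2 and Grik3, named after their values were seen. Grik2 was at 1959 and 3378 CPM in METH and at 1787 and 3375 CPM in saline nuclei. Of 8 AMPA receptor genes and auxiliaries none was called, with medians of -0.36 and -0.18. The auxiliary gene Cnih3 had the widest ratios, at -2.15 and -1.59. Of 5 measured metabotropic glutamate receptor genes 3 were called lower and none higher. Cluster 6 lies in the negative nuclei of each of these ratios. With clusters 3, 4 and 6 left out, Grin2c and Grik2 were called as before, and Grin2a, Grik3 and Grin3a were not. Grin2a then read -0.85 (-1.17 to -0.53) in METH and -1.27 (-1.76 to -0.80) in saline nuclei, Grik3 -1.03 and -1.08, and Grin3a turned to 0.48 (-0.30 to 1.22) and 1.33 (0.37 to 2.25).

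Of 10 measured GABA-A receptor genes none was called. Their medians were 0.31 and 0.29, and 7 were higher and none lower in both libraries, where 28.9% of all measured genes were higher and 29.4% lower. Nuclei of cluster 6 are among the negative nuclei here too. Gabrb2 was at 1001 and 669 CPM in METH and at 946 and 710 CPM in saline nuclei. Gabrg1 was sparse, with 13 UMIs in positive and 26 in negative METH nuclei, out of totals of 641543 and 2333257 UMIs. In saline nuclei it had 20 and 22, out of totals of 292735 and 1560792. Scaled to these totals Gabrg1 was higher in the positive nuclei of both libraries. Of 4 measured genes of GABA handling none was called.

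Among channel and matrix genes calls fell on calcium channels. Of 11 fast-spiking channel genes 7 were higher in both libraries, as were 28.9% of all measured genes, and none was called. Nuclei of clusters 4 and 6 are among the negative nuclei of these ratios. The Kv1 gene Kcna1 was at 74.8 and 53.6 CPM in METH and at 130 and 69.8 CPM in saline nuclei. Kcnab1, a beta subunit, was at 2157 and 1388 CPM in METH and at 2193 and 1537 CPM in saline nuclei. None of 5 sodium channel genes was called. Of 11 calcium channel genes Cacna1e, Cacna1g and Cacna2d3 were called lower, where 0.826% of all genes were. With clusters 3, 4 and 6 left out none of the 3 was called. Cacna1e then read -0.68 (-1.74 to 0.26) in METH and -0.55 (-1.49 to 0.29) in saline nuclei, Cacna1g -1.26 (-2.24 to -0.40) and -1.39 (-2.90 to -0.18), and Cacna2d3 -0.82 (-2.15 to 0.32) and 0.62 (-0.29 to 1.47). Of 6 measured perineuronal net genes none was called. Acan, the core proteoglycan aggrecan, was at 59.2 and 19.3 CPM in METH and at 27.3 and 17.9 CPM in saline nuclei, and Hapln4, a link protein of the net, was at 112 and 76.7 CPM in METH and at 126 and 76.9 CPM in saline nuclei. Of 18 synaptic adhesion genes 13 were lower in both libraries, as were 29.4% of all measured genes. Of these Nlgn1, a postsynaptic partner of neurexins, was called lower, at 1122 and 1864 CPM in METH and at 933 and 2108 CPM in saline nuclei. With clusters 3, 4 and 6 left out Nlgn1 read -0.69 (-0.82 to -0.57) in METH nuclei, short of the rule, and -1.28 (-1.48 to -1.09) in saline nuclei.

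Other sarcomere genes were mostly too sparse to measure. Of 20 in the gene table only Nebl and Actn2 were measured, and neither was called. Nebl, a nebulin relative, was at 511 and 439 CPM in METH and at 635 and 461 CPM in saline nuclei. Mybpc2, of fast muscle, had 4 and 11 UMIs in METH nuclei, out of totals of 641543 and 2333257. In saline nuclei it had 3 and 18, out of totals of 292735 and 1560792. Scaled to these totals Mybpc2 was higher in positive METH nuclei and lower in positive saline nuclei, on few UMIs. Actn2, an alpha-actinin, was at 85.7 and 53.1 CPM in METH and at 85.4 and 60.2 CPM in saline nuclei. Egfr, from a list of ErbB receptors and neuregulins of which none was called, was at 168 and 90.0 CPM in METH and at 174 and 78.2 CPM in saline nuclei.

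Marker lists of other classes were summed in the same way. The Sst-class list summed to 228 CPM in positive and 540 CPM in negative METH nuclei, and to 266 and 440 CPM in saline nuclei. Of its 6 measured genes, Calb1, Crhbp and Grin3a were called lower and Mme higher. With clusters 3, 4 and 6 left out Mme alone of these was called in both libraries, and Calb1 read -0.28 (-1.91 to 1.13) and Crhbp -1.42 (-3.40 to 0.11) in METH nuclei. The Vip-class list summed to 159 and 444 CPM in METH and to 208 and 345 CPM in saline nuclei. The Lamp5 and Sncg list summed to 271 and 835 CPM and to 157 and 864 CPM. Cluster 6 lies among the negative nuclei, with 1177 CPM of the Vip-class list and 1535 CPM of the Lamp5 and Sncg list. In cluster 1 the Sst-class, Vip-class and Lamp5 and Sncg lists summed to 305, 227 and 124 CPM. Clusters 0, 2 and 5 were lower for Sst-class genes (198, 209 and 123 CPM) and Vip-class genes (126, 164 and 35.7 CPM). They were higher for the Lamp5 and Sncg list (471, 293 and 730 CPM). Excitatory markers summed to 1150 and 1144 CPM in METH and to 1025 and 1044 CPM in saline nuclei. Astrocyte markers summed to 98.2 and 98.6 CPM in METH and to 78.6 and 151 CPM in saline nuclei, and oligodendrocyte markers to 185 and 152 CPM and to 202 and 375 CPM. Microglial markers summed to 24.9 and 12.4 CPM in METH nuclei, a log2 ratio of 1.005 (0.026 to 1.93), and to 47.8 and 48.7 CPM in saline nuclei. Vascular markers summed to 12.5 and 5.57 CPM in METH and to 13.7 and 8.33 CPM in saline nuclei, on 8 and 4 UMIs in the positive nuclei.

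METH was compared with saline first by the share of members. They were 84 of 408 Pvalb-like nuclei (20.6%, 16.8 to 24.8) in the METH and 51 of 332 (15.4%, 11.7 to 19.7) in the saline library, a log2 ratio of 0.42 (-0.096 to 0.95). Over all nuclei the shares were 1.53% and 0.737%, but the denominators differ in their other cell types. Mybpc1 over all Pvalb-like nuclei was at 153 CPM in METH and 115 CPM in saline, a log2 ratio of 0.42 (0.18 to 0.66). Depth was higher in the METH library, and with every nucleus brought to 2000 UMIs, which left out 2 METH nuclei and 1 saline nucleus, the expected share was 13.7% in METH and 11.3% in saline nuclei. Esr2 over all Pvalb-like nuclei was at 38.0 and 22.1 CPM, a log2 ratio of 0.78 (0.25 to 1.33).

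By cluster the order of the shares was the other way, with overlapping intervals. Cluster 1 held 47 of 408 METH nuclei (11.5%, 8.59 to 15.0) and 45 of 332 saline nuclei (13.6%, 10.1 to 17.7). The METH share by Mybpc1 was larger beside more members outside the cluster, 43 (10.5% of Pvalb-like nuclei, 7.73 to 13.9) in METH against 16 (4.82%, 2.78 to 7.71) in saline. Of those 43 METH nuclei 21 had a single Mybpc1 UMI, as had 7 of 16 in saline. Fewer cells of a kind and less RNA per cell cannot be told apart in such shares.

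Levels of the genes singled out for the group were compared between METH and saline members. Mybpc1 was at 711 and 728 CPM, and Esr2 at 126 and 102 CPM, a log2 ratio of 0.30 (-0.32 to 0.96). Drd2 was at 37.4 and 71.7 CPM, a log2 ratio of -0.94 (-1.85 to -0.02). With 24 and 21 UMIs Drd2 was under the minimum of 50 and could not be called, although its interval left out 0. Grin2c was at 56.1 and 78.6 CPM, a log2 ratio of -0.49 (-1.28 to 0.34), and was not called. In members of cluster 1 alone Drd2 was at 76.9 CPM in METH and 104 CPM in saline nuclei, and Grin2c at 109 and 84.2 CPM. The 2 libraries thus differed in the mix of members, with 48.8% of METH and 68.6% of saline members in cluster 1, and for each called gene the value in cluster 1 alone is given below.

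Outside the gate, 4032 genes reached 50 UMIs in the 2 libraries together and 20 CPM in 1 of them, with a median log2 ratio of -0.00071. Of them 3 (0.0744%) were higher and 8 (0.198%) lower in METH members, by 1.5-fold in the ratio and in the end of its interval. Among 7578 genes in the Mybpc1-negative nuclei 6 were higher and 17 lower.

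Hip1, a clathrin adaptor that binds huntingtin, had 125 UMIs in METH and 21 in saline members, 195 and 71.7 CPM, a log2 ratio of 1.44 (0.77 to 2.18). It was seen in 66.7% of METH and 33.3% of saline members. In Mybpc1-negative nuclei it was at 158 and 147 CPM. Usp36, a deubiquitinase of the nucleolus, was at 452 CPM in METH and 229 CPM in saline members, a log2 ratio of 0.98 (0.59 to 1.39), and in negative nuclei at 321 and 296 CPM. In members of cluster 1 neither passed the rule, with a log2 ratio of 1.396 (0.53 to 2.35) for Hip1 and of 0.93 (0.42 to 1.47) for Usp36. The third called gene, Il1rapl2, lay outside the rule for named genes and is named after its value was seen, at a log2 ratio of 0.89 (0.65 to 1.14). A single saline nucleus held 36.2% of its UMIs in that library, and it leads cluster 0. In members of cluster 1 Il1rapl2 was at 60.8 and 69.4 CPM, a log2 ratio of -0.19 (-1.26 to 0.92).

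The other named higher genes did not pass the calling rule. Zbtb16, a transcription factor gene known to respond to glucocorticoids, was at 382 and 198 CPM, a log2 ratio of 0.95 (0.53 to 1.39), with 0.47 (0.28 to 0.66) in negative nuclei. Pld5 had a log2 ratio of 1.14 (0.57 to 1.76), Sh3rf1, a scaffold of the JNK pathway, of 1.22 (0.52 to 1.99), and Iqgap2 of 0.90 (0.45 to 1.37). Cnnm1, Zdhhc2, a palmitoyltransferase, and Zfp410 had log2 ratios of 1.09, 1.25 and 1.26. Reln was at 168 and 75.2 CPM, a log2 ratio of 1.16 (0.49 to 1.90), but at 38.4 and 29.7 CPM in members of cluster 1, 0.37 (-1.16 to 2.07).

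Among the called lower genes were those of an iron store, a secreted inhibitor, a chaperone and an RNA-binding protein. Fth1, the ferritin heavy chain, had 28 UMIs in METH and 47 in saline members, 43.6 and 161 CPM, a log2 ratio of -1.88 (-2.61 to -1.17), with -0.41 (-0.76 to -0.06) in negative nuclei. Cst3, the secreted protease inhibitor cystatin C, was at 57.7 and 178 CPM, a log2 ratio of -1.62 (-2.27 to -0.99), and it was lower in METH negative nuclei as well, at 65.1 and 147 CPM. Hspa5, the endoplasmic reticulum chaperone BiP, was at 29.6 and 106 CPM, a log2 ratio of -1.84 (-2.74 to -0.97), with -0.69 (-1.05 to -0.33) in negative nuclei. Casc3, a core protein of the exon junction complex, was at 85.7 and 191 CPM, a log2 ratio of -1.16 (-1.72 to -0.59), with 0.12 (-0.19 to 0.44) in negative nuclei. In members of cluster 1 Cst3 passed the rule at -1.41 (-2.26 to -0.59). Fth1 read -1.73 (-2.76 to -0.77) there and Hspa5 -2.89 (-4.64 to -1.47), both under the count minimum, and Casc3 did not pass at -1.20 (-1.93 to -0.49).

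Cst3 and Fth1 are abundant in glia, so glial markers are given beside them. Of 8 astrocyte markers 1 was at 0 in METH members and 2 in saline members, and their sum was 98.2 and 78.6 CPM. Of 8 oligodendrocyte markers none was at 0 in METH and 1 in saline members, with sums of 185 and 202 CPM. Microglial markers summed to 24.9 CPM in METH members, with 2 of 7 at 0, and to 47.8 CPM in saline members, with none at 0. Their part in the result was not tested.

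The remaining called lower genes were Grm7, Car10, Ptprk and a clone-based transcript, named after their values were seen, at log2 ratios of -2.01, -1.38, -1.41 and -1.43. For Grm7 a single saline nucleus held 54.3% of the library's UMIs, for Car10 30.4%, and for the clone-based transcript 65.1%. In members of cluster 1 Grm7 read -1.79 (-2.46 to -1.15) and the clone-based transcript -1.89 (-2.87 to -0.99), past the rule. Car10 read -1.13 (-1.74 to -0.53) there and Ptprk -0.79 (-1.63 to 0.04), short of it. The other named lower genes did not pass the rule. Tac1, the precursor of substance P, was at 59.2 and 137 CPM, a log2 ratio of -1.21 (-1.89 to -0.53), with -0.64 in negative nuclei. Pcdh17, a protocadherin, was at 142 and 280 CPM, a log2 ratio of -0.98 (-1.43 to -0.53). Lrrc8c, a subunit of volume-regulated anion channels, Rbck1, a subunit of the linear ubiquitin ligase, and Gaa, the lysosomal alpha-glucosidase, had log2 ratios of -1.30, -1.24 and -1.10. Astn2, a protein of neuronal migration and protein trafficking, was at 656 and 1076 CPM, a log2 ratio of -0.71 (-0.93 to -0.50), and at 1084 and 937 CPM in negative nuclei, 0.21 (0.12 to 0.30).

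**Figure D5:**
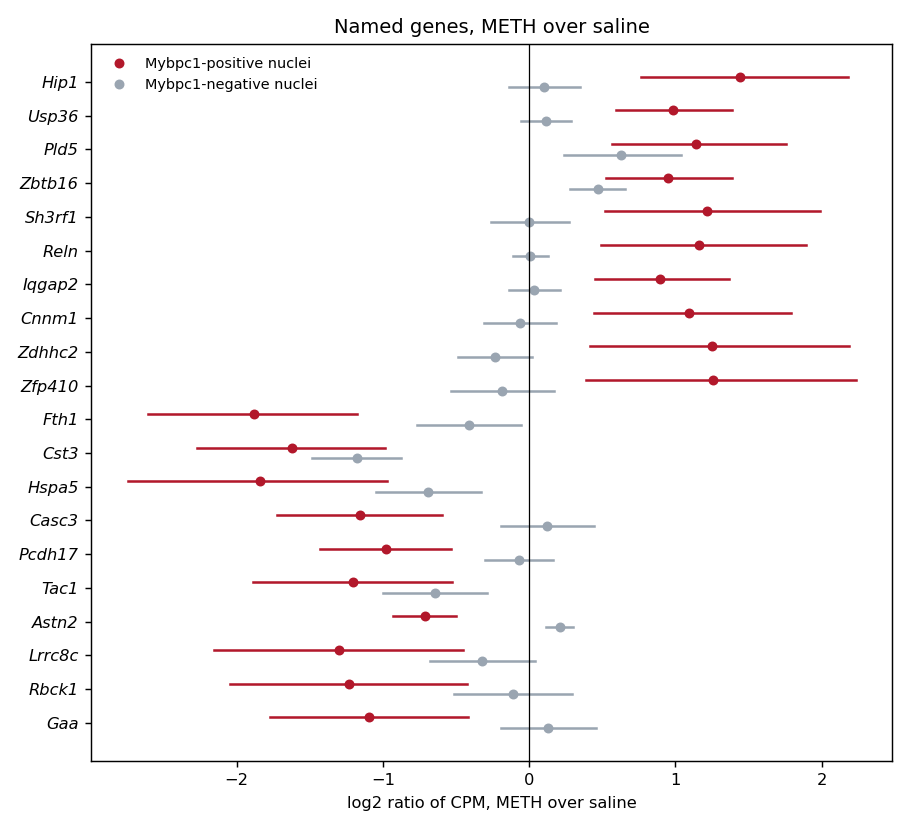
Log2 ratios of CPM of METH over saline with 95% counting intervals, in Mybpc1-positive (red) and Mybpc1-negative (grey) nuclei, for the 10 named higher and 10 named lower genes. Cst3 lay near its value in the negative nuclei, at -1.62 and -1.18, while Astn2 lay on opposite sides of 0, at -0.71 and 0.21.

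Lists gave few calls between METH and saline members. All 8 measured mitochondrially encoded genes were below 0, with a median log2 ratio of -0.66, and all 10 in the negative nuclei, with a median of -0.38, and none was called. Mitochondrial RNA made up 0.191% of UMIs in METH members and 0.293% in saline members, and the part of this in other results was not tested. Of 4 measured glucocorticoid-responsive genes 2 were above 0 and none was called. Fkbp5, below the count minimum, had 32 UMIs in METH and 3 in saline members, out of totals of 641543 and 292735. Of 15 Pvalb-class genes 5 were above 0, with a median of -0.14, and none was called. Of 8 GABA-A receptor genes 5 were above 0, with a median of 0.06, and of 6 dopamine signalling genes 1 was above 0, with a median of -0.27. Immediate early genes were singly too sparse, with Homer1 alone measured, at 284 CPM in METH and 325 CPM in saline members. Their list, with Homer1 in it, summed to 365 and 492 CPM, a log2 ratio of -0.43 (-0.74 to -0.12). In negative nuclei it summed to 435 and 538 CPM.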

How the data were processed

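Nuclear RNA was read on the 10x Genomics 3' platform. The authors deposited raw UMI counts of each gene in each barcode; the submitters' processing notes name Cell Ranger 7.0.0. Those notes name a human build, while the gene identifiers are rat Ensembl ones, and no source used here states the rat build. Barcodes with at least 500 genes were kept, and doublets were called with Scrublet (scanpy 1.11.5, expected rate 6%) and kept in the main analysis.

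The members and gene lists were chosen with earlier results of these data known. Counts were summed over the nuclei of each group and library and divided by the group's total (CPM). Log2 ratios have exact conditional binomial 95% intervals, shares Clopper-Pearson and levels Poisson intervals. They cover counting error only, and a count of 0 was set to 3 for ratios. No p-value was computed, since each group is 1 library. Positive against negative nuclei needed 30 UMIs and 20 CPM per library, METH against saline 50 UMIs over both. Named genes were the 12 highest and 12 lowest, or 10 and 10 between METH and saline with no nucleus over 25% of a library's UMIs, ranked by the interval end nearest to 0, without gate, mitochondrial, ribosomal, haemoglobin or clone-based genes, and of each list the members with the largest ratios. Some list members outside that rule (Erbb4, Kcnc2, Esr1, Cyp19a1, Drd1, Drd4, Drd5, Mybpc2 and Fkbp5) are named as known markers, chosen after their values were seen. Clusters came from 1500 variable genes without the gate's genes, 20 principal components, 15 neighbours and Leiden resolution 0.5 (igraph 0.11.9). The calling rule was checked on simulated counts. Alternatives covered the gate, doublets, depth matching, weights, edgeR 4.0.16 TMM factors, filters and the size rule.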

Additional observations from a re-analysis of the deposited data

Results flagged for a closer look

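Astn2 lay on opposite sides of no change in the 2 groups of Pvalb-like nuclei. Its log2 ratio of METH over saline was -0.71 in Mybpc1-positive nuclei and 0.21 in Mybpc1-negative nuclei, and both counting intervals left out 0. Over 13 other settings the ratio in Mybpc1-positive nuclei ran from -0.76 to -0.37, partly outside its main interval. A single saline nucleus held 13.3% of the Astn2 UMIs of saline members. The difference between the groups was not tested, since each condition is 1 library.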

How the results depend on the processing

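No paired analysis was possible because each condition is 1 library. Of the checks of the main results, 114 moved by less than their interval or stayed within 1.5 times the count, and 28 did not. The first 4 settings were chosen after seeing the data.

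With at least 3 of the 6 marker genes, genes lower in Mybpc1-positive nuclei numbered 18 of 5908 measured. METH over saline then gave 1 higher and 2 lower of 3343 measured. With clusters 3, 4 and 6 left out, Drd2 read 4.81 (log2, METH library). In that setting 16 of 6647 genes were lower in positive nuclei and 5 of 3861 lower in METH. Ryr3 (METH library) turned to 0.35, and in the saline library Cacna2d3 to 0.62, Thsd7b to 0.53 and Man1a1 to 1.18. Next, positive nuclei of cluster 1 alone were set against negative nuclei of clusters other than 1, 3, 4 and 6, which changes both groups. Esr2, Drd2 and Grin2c then read 3.93, 5.14 and 3.14 in the METH library. The Drd2 value has a count of 0 set to 3, and its interval starts at 4.73. Genes higher in positive nuclei numbered 43 of 6392, and METH over saline gave 5 higher and 5 lower of 2390. Ryr3 turned to 1.47 (METH) and Thsd7b to 1.09 (saline). With cluster 1 in place of Mybpc1, against all nuclei of those other clusters, Drd2 read 5.35 and Grin2c 3.27 (METH). This Drd2 value also has a count of 0 set to 3, and its interval starts at 4.95. In this setting 47 of 6639 genes were higher, and METH over saline gave 5 higher of 2818. The log2 share of METH over saline among all Pvalb-like nuclei was -0.23 (-0.86 to 0.39). Ryr3 and Grm8 (METH) turned to 2.06 and 0.039 and Thsd7b (saline) to 1.24. Drd2 and Grin2c were among the leading genes of cluster 1, which was taken for its high share of Mybpc1-positive nuclei. Their values and the counts of genes higher under both settings with cluster 1 are therefore no separate result.

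Without doublet calls 5 of 3876 genes were lower in METH. With nuclei matched on UMIs Drd2 read 2.81 (saline), with a count of 0 set to 3 and an interval that starts at 2.38. METH over saline then gave 5 higher. From 10 UMIs and with no CPM minimum 16 were higher and 32 lower in METH. At 2-fold with no rule on the interval, 39 of 7268 were higher and 124 lower in positive nuclei. For METH over saline 44 of 4032 were then higher and 19 lower. Without the top nucleus of each gene 6 were higher and 3 lower in METH. The number of genes measured is not given for this setting, for matching on UMIs or for the minimum of 10 UMIs. The causes were not tested. TMM factors changed no direction of a named gene, equal weights per nucleus gave no counts of calls, and 17 gene values under the first 4 settings had too few UMIs for a ratio. The named METH over saline genes kept their direction in 20 of 20 cases under each setting run, while Il1rapl2, outside them, turned to -0.19 in members of cluster 1. Depth limits Drd2, which rests on 24 and 21 UMIs in METH and saline members.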

Other observations

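Receptors for other transmitters gave no called gene between positive and negative nuclei. Of 23 serotonin, acetylcholine and adrenergic receptor genes 5 were measured. Htr2a, a serotonin receptor, was at 128 CPM in positive and 53.6 CPM in negative METH nuclei, and at 58.1 and 64.1 CPM in saline nuclei. Of 8 opioid and cannabinoid receptor genes 2 were measured, and Cnr1, the cannabinoid receptor of other interneuron classes, had 16 and 101 UMIs in METH nuclei and 4 and 78 in saline nuclei, log2 ratios of -0.80 and -1.87. Oprd1, the delta opioid receptor, had log2 ratios of -0.08 and 0.22. Neither group of lists was tested beyond these counts.

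Ntf3 and Gpr149, 2 genes of the chandelier list below the count minimum, read higher in positive nuclei. Ntf3, a neurotrophin, had 26 UMIs in positive and 8 in negative METH nuclei, and 13 and 7 in saline nuclei. Gpr149, an orphan receptor, had 38 and 26 UMIs in METH and 13 and 13 in saline nuclei, which is 59.2 and 11.1 CPM and 44.4 and 8.33 CPM.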
